A study of Mus musculus with 4 samples.

Results

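The genes of the NFAT, calcineurin and PKC-β axis were followed in cultured lung endothelial cells (ECs) in which the RNA-editing enzyme ADAR1 was deleted. The axis was represented by 9 of the 24421 genes of the count tables, namely Nfatc1, Nfatc2, Nfatc3, Ppp3ca, Ppp3cb, Ppp3r1, Rcan1, Camk4 and Prkcb. They were chosen by their measured counts and depth in this contrast, because several of them fell after the deletion, so that every difference of these genes between deleted and control cells is given here as a description, without a test. The ECs came from 2 inducible ADAR1 KO (i-KO) mice of independent litters, named EC1 and EC2, both of the strain C57/BL6, male and 2 weeks old. Cultures given 4-OH-Tamoxifen (TM) to induce the deletion, called EC-specific in the sample labels, were set beside nontreated cultures (CON) of the same mouse. This gave 4 RNA libraries and n = 2 per group. The cells had been selected with beads against CD31 and ICAM-2, and the TM and CON cultures alike carried the inducible construct. No TM-treated culture without that construct was among the libraries, so an effect of TM and an effect of the deletion cannot be told apart. The driver of the inducible Cre is not given in the sources used here.

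Calcineurin is a phosphatase that calcium and calmodulin switch on. It strips phosphate from NFAT transcription factors, which then enter the nucleus and bind DNA at a GGAAA core. Ppp3ca and Ppp3cb encode catalytic subunits of calcineurin and Ppp3r1 the calcium-binding regulatory subunit, while Rcan1 encodes an inhibitor of calcineurin that NFAT itself switches on. In ECs this route is best known downstream of VEGF, which also activates PKC-β, the product of Prkcb, and Nfatc1 is known for its part in heart valve and lymphatic endothelium. Camk4 encodes a kinase that calmodulin activates, best known from neurons and T cells.

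Expression was read in 2 ways from the same libraries, and neither covered all 9 genes well. The first was the count of read pairs per gene, scaled to CPM, the count relative to the size of its library, with the TMM factors of edgeR. Only 0.823% to 0.858% of the 131796753 to 207323870 counts of a library fell on genes, so that a count of 0 allowed up to 1.71 to 2.74 CPM (3 counts, counting error only). The second was the read depth at variant sites listed in the exons and UTRs of a gene, given as the median over sites per 100000000 counts of the library (scaled exonic depth). A library lists a site only where a variant base was called, so a gene without sites is not shown to lack reads. The counts of the 6 genes with at least 3 sites in every library ran only from 0.489% to 1.58% of what the depth implied in read pairs, and the median over 4676 tested genes was 0.600%. The kit keeps the strand of the RNA, with the first read of a pair antisense to it. The study states default settings for its pipelines, and by default HTSeq takes the first read as sense, a setting that would count reads from the strand opposite to a gene. Whether the counts hold sense or antisense reads was not tested, so a count or CPM below is the value deposited under a gene's name and is not shown to be its mRNA. Among tested genes with depth, the median was 0.995% for those sharing bases with an exon on the opposite strand and 0.490% for the others. As a check of the labels, the scaled depth over exons 12 to 14 of Adar, the gene of ADAR1, was 118 in EC2 CON and 31.6 in EC2 TM, and 109 in EC1 CON with no site listed in EC1 TM. It was higher in TM over exons 1 to 11 (115 and 504 in EC1, 123 and 463 in EC2) and over exon 15 (74.4 and 320, 109 and 403), which the design of the deletion also spans. Exons were numbered along the GENCODE transcript with the most exons. Most of 12 endothelial markers had exonic depth in all libraries, with a scaled depth of Cdh5 between 4401 and 5316. Vwf had a depth of at most 9.75, and Sox17 had no listed exonic site in CON.

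Across the axis, the counts of Nfatc1, Camk4 and Prkcb were lower in TM in both mice, with both TM libraries below both CON libraries. Those of Ppp3cb and Ppp3r1 were higher in TM in both mice, those of Rcan1 were lower in both mice by unequal amounts, and those of Nfatc3 and Ppp3ca went different ways in the mice. Nfatc2 had no count in any library. In the fit of edgeR across all genes, 8 of the 9 genes passed the filter on low counts, and 3 of them, Nfatc1, Camk4 and Prkcb, lay on the lower side of its threshold (called, at an adjusted p at or under 0.05), with none called higher. Since the genes were chosen for falling in these counts, this restates the choice and nothing is read from it. Over all genes tested, 3.35% were called lower, 4.39% higher and 7.75% in either direction, or 612 of 7899 genes. With the mouse as a replicate block the same fit called 1184 genes. The same block in DESeq2 called none of the 9 genes, with no adjusted p for Camk4 and Prkcb, and Nfatc1 did not reach the threshold in edgeR when EC2 TM was left out. Lower CPM in both mice was seen for 4 of the 9 genes and for 33.1% of the genes tested, and higher CPM for 2 of the 9 and for 34.0%. Both TM libraries lay below both CON libraries for 3 of the 9 genes and for 23.9% of the genes tested. The 8 genes had a median log2 fold change of -0.26, beside 0.00 over the 7899.

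**Figure D1:**
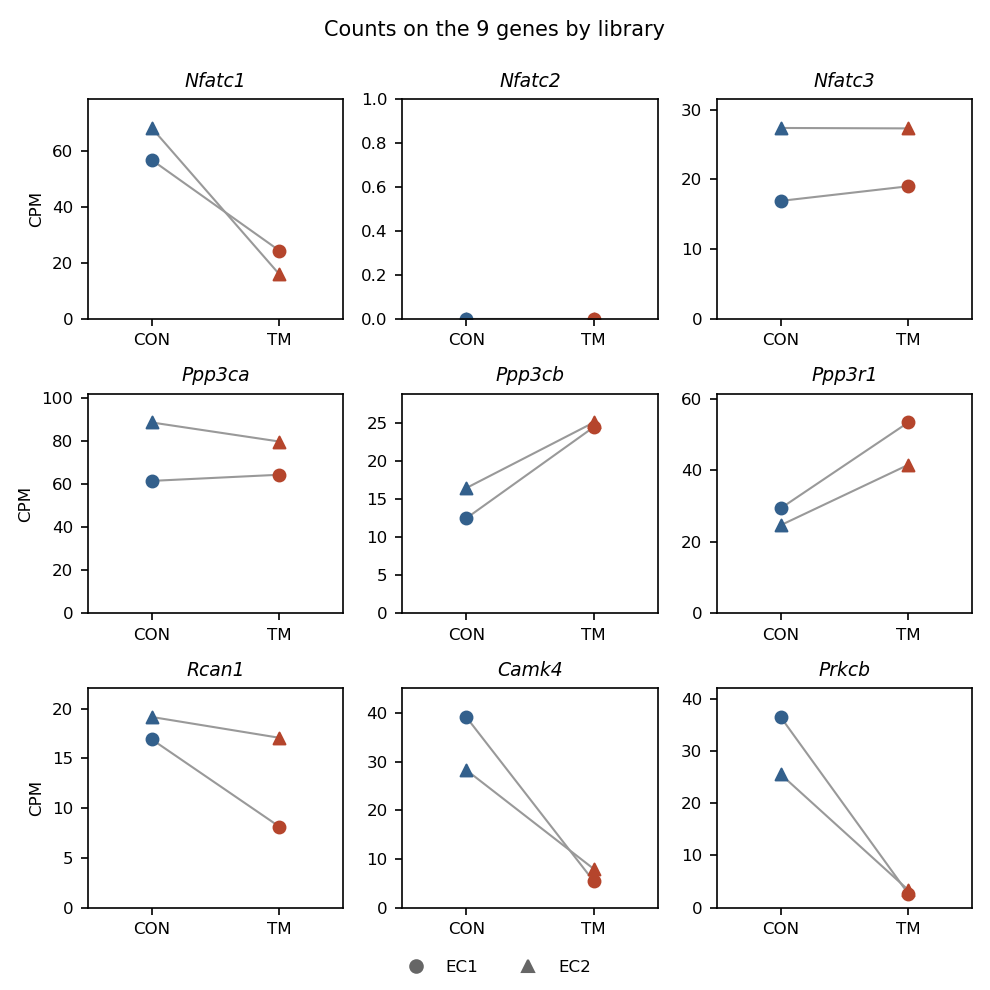
Scaled counts (CPM, y axis) of the 9 genes in CON and TM (x axis), with circles for EC1, triangles for EC2 and a line joining the libraries of a mouse. Nfatc1, Camk4 and Prkcb lay lower in TM in both mice, Ppp3cb and Ppp3r1 lay higher, and Nfatc2 was at 0 in all 4 libraries.

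Nfatc1 was lower in TM in both mice by both readouts, and so was Rcan1, to a smaller degree. Both readouts entered the choice of the genes, so that their likeness is no separate support. Nfatc1 lies on the minus strand of chromosome 18 at positions 80606205 to 80713071 (mm10), and no exon of another gene overlaps its exons. Its count was 64 in CON and 27 in TM in EC1, and 75 in CON and 28 in TM in EC2, or 56.9, 24.4, 68.4 and 15.9 CPM in that order. Both TM libraries were thus below both CON libraries, at 0.429 times the CON value in EC1 (95% counting interval 0.263 to 0.683) and 0.233 times in EC2 (0.145 to 0.364). The fitted log2 fold change of the counts was -1.66 (standard error 0.39). In bulk libraries, fewer cells with a transcript and less of it per cell cannot be told apart.

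The scaled exonic depth of Nfatc1 was 342 over 30 sites in EC1 CON and 113 over 9 sites in EC1 TM. EC2 had 385 over 29 sites in CON and 116 over 19 sites in TM. The log2 ratios were -1.60 in EC1 and -1.73 in EC2, so that the mice differed by less than the groups. The fall was not set by 1 exon, although most pieces near the 5′ end could not be compared. Of the exon and UTR pieces with a site in both libraries of a mouse, 4 of 4 in EC1 and 5 of 5 in EC2 were lower in TM, with ratios of 0.329 to 0.789 and 0.292 to 0.530. In the exon with the most sites, the depth went from 410 to 151 in EC1 and from 420 to 146 in EC2. In the 3′ UTR it went from 82.7 to 65.3 and from 133 to 38.8, the smaller change in EC1 resting on 1 site in TM. The median depth at intronic sites, some of which reached the depth of exons (up to 424 reads in EC1 CON and 538 in EC2 CON), was also lower in TM, at 26.7 against 7.59 in EC1 and 11.8 against 5.31 in EC2, with log2 ratios of -1.81 and -1.16.

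The other NFAT genes showed no such fall. Nfatc2, known for its role in lymphocytes, lies on the minus strand of chromosome 2 at positions 168476410 to 168601657 (mm10). It had 0 counts in every library and a single listed exonic site, of 1 read, in EC2 TM. Nfatc3, a broadly expressed family member at positions 106058840 to 106130537 of chromosome 8 (mm10, plus strand), had 19 and 21 counts in CON and TM of EC1 and 30 and 48 in those of EC2, or 16.9, 19.0, 27.4 and 27.3 CPM. The EC2 libraries were above the EC1 libraries, and CON and TM differed by less than the mice. Its fitted log2 fold change was 0.09 (standard error 0.44). Its scaled exonic depth was 63.9 in CON and 72.8 in TM of EC1, and 83.3 and 83.9 in those of EC2, for log2 ratios of 0.19 and 0.01. Matched exon and UTR pieces leaned the other way, with 2 of 3 lower in TM in EC1 and 4 of 5 in EC2. Part of its exons shares bases with Esrp2 on the opposite strand, a gene with 66, 57, 82 and 42 counts and only 1 listed exonic site, in EC2 CON.

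No calcineurin subunit was lower in TM in both mice by counts or by median depth. Scaled by the median depth over all genes in place of the library total, Ppp3ca was slightly lower in both mice (log2 ratios of -0.12 and -0.13). In this and the following sentences, series of 4 values run from CON to TM of EC1 and then of EC2. Ppp3ca, on the plus strand of chromosome 3 at positions 136670124 to 136937727, had 69, 71, 97 and 140 counts. Scaled, this was 61.4, 64.2, 88.5 and 79.6 CPM, with the groups overlapping. The fitted log2 fold change was -0.05 (standard error 0.33), and its scaled exonic depth of 311, 324, 462 and 393 gave log2 ratios of 0.06 in EC1 and -0.23 in EC2. Ppp3cb, on the minus strand of chromosome 14 at positions 20499364 to 20546573, had 14, 27, 18 and 44 counts, or 12.5, 24.4, 16.4 and 25.0 CPM, with both TM libraries above both CON libraries. Its ratio of TM to CON was 1.96 in EC1 (95% counting interval 0.993 to 4.05) and 1.52 in EC2 (0.863 to 2.80), and the fitted log2 fold change was 0.77 (standard error 0.46). The median depth of Ppp3cb gave another picture, at 107 and 93.3 in EC1 and 115 and 135 in EC2. Compared piece by piece, however, its depth was higher in TM in 4 of 4 exon and UTR pieces in EC1 and in 8 of 8 in EC2, with median ratios of 1.40 and 1.30. The median over all sites mixed different pieces in CON and TM, since a library lists its own sites.

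Ppp3r1, on the plus strand of chromosome 11 at positions 17159263 to 17200375, had 33, 59, 27 and 73 counts, or 29.4, 53.4, 24.6 and 41.5 CPM, so that both TM libraries were above both CON libraries. Its ratio was 1.82 in EC1 (95% counting interval 1.17 to 2.87) and 1.69 in EC2 (1.07 to 2.73), and the fitted log2 fold change was 0.80 (standard error 0.38). Its median depth was 172 and 201 in EC1 and 254 and 218 in EC2. Of pieces with a site in both libraries, 2 of 3 were higher in TM in EC1 and 4 of 4 lower in EC2. At single sites listed in both libraries, the ratio of TM to CON was 1.18 over 4 sites in EC1 and 1.05 over 5 sites in EC2. Part of its exons shares bases with Wdr92 on the same strand, where a read cannot be given to 1 gene. For Ppp3r1 the direction of the depth in EC2 thus depended on the sites compared, while the counts were higher in TM.

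Rcan1, the calcineurin inhibitor, lies on the minus strand of chromosome 16 at positions 92391953 to 92470867 (mm10). It was lower in TM by depth in both mice. Its scaled exonic depth in EC1 was 213 over 11 sites in CON and 106 over 5 sites in TM. EC2 had 204 over 20 sites in CON and 150 over 12 sites in TM. Both TM libraries were below both CON libraries, with log2 ratios of -1.0 in EC1 and -0.44 in EC2. All pieces with a site in both libraries of a mouse were lower in TM, 2 of 2 in EC1 and 3 of 3 in EC2, with median ratios of 0.460 and 0.688. The counts were low, at 19, 9, 21 and 30, or 16.9, 8.14, 19.2 and 17.1 CPM. Their ratios were 0.482 in EC1 (95% counting interval 0.192 to 1.12) and 0.891 in EC2 (0.493 to 1.64), and the fitted log2 fold change was -0.47 (standard error 0.51).

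Rcan1 transcripts start at separate first exons, of which the downstream one is known to be switched on by calcineurin and NFAT. In the upstream first exon, a single site was listed in EC1 CON, with 111 reads, and a single site in EC2 CON, with 127 reads. The downstream first exon had 1 listed site, of 288 reads, in EC2 CON. No TM library listed a site in either exon, so no ratio between CON and TM could be taken for the separate starts. The 250 bases before both starts are shown, since they differ in the NFAT core GGAAA, searched with its reverse complement TTTCC and given in capitals. The sequences are from RefSeq on the minus strand (GRCm38.p6, 5′ to 3′), chr16:92466170-92466419 for the upstream and chr16:92400079-92400328 for the downstream start.
Rcan1 upstream start: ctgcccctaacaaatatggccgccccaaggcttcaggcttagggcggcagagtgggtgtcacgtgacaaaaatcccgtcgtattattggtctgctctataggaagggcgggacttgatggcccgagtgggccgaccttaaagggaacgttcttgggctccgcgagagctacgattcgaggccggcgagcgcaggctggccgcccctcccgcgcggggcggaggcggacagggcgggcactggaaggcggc
Rcan1 downstream start: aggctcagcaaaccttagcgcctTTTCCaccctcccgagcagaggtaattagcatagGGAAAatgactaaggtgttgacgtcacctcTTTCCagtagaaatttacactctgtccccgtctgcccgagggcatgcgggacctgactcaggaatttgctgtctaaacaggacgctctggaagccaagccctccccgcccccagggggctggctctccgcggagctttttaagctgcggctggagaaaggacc
The upstream window held none of these cores and the downstream window held 3, at positions -227, -193 and -163 from the start. At least 1 core was found in 55.6% of 32851 RefSeq promoter windows of this length, and 3 or more in 6.39%. Of the other genes with a RefSeq window, Ppp3cb held 3 cores, Nfatc2 held 1 and 3 before its starts, Nfatc3 held 1 and 0, and Ppp3r1 and Prkcb held none. A match of these letters is a description of the sequence and not evidence of binding.

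**Figure D2:**
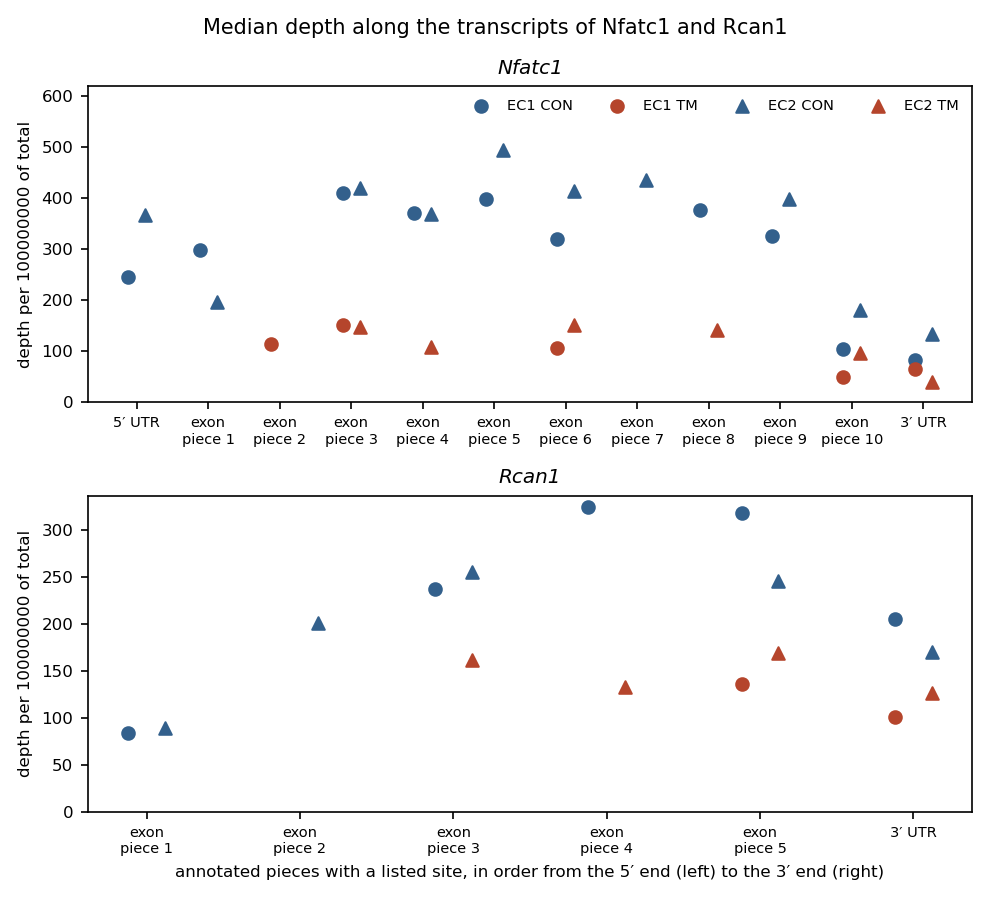
Median depth at listed sites (y axis, per 100000000 counts of the library) in the exon and UTR pieces of Nfatc1 and Rcan1, ordered along the x axis from the 5′ to the 3′ end, with blue for CON, red for TM, circles for EC1 and triangles for EC2. A piece without a point has no listed site in that library. In each Nfatc1 and Rcan1 piece listed in both libraries of a mouse, the TM point lies below the CON point.

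Camk4 and Prkcb had the largest falls in counts of the 9 genes, but their exons gave no depth to set beside them. Camk4, on the plus strand of chromosome 18 at positions 32934931 to 33191228 (mm10), had 44 counts in CON and 6 in TM of EC1, and 31 and 14 in those of EC2, or 39.1, 5.43, 28.3 and 7.96 CPM. Both TM libraries were far below both CON libraries, at 0.139 times the CON value in EC1 (95% counting interval 0.0483 to 0.327) and 0.282 times in EC2 (0.138 to 0.545). The fitted log2 fold change was -2.28 (standard error 0.49). Its exons held 1 listed site of 2 reads in EC1 TM and 1 of 10 reads in EC2 CON, and none in the other libraries. Rcan1, with 19 counts in EC1 CON, had 11 exonic sites there with a median of 283 reads, so the Camk4 counts were not matched by exonic depth of the same order. Part of a Camk4 exon shares bases with 2310026I22Rik, a gene on the opposite strand without a listed exonic site. Where the counted reads came from was not tested.

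The only deeply covered sites that the site table gave to Camk4 lay beyond its 3′ end. Between positions 33199433 and 33200383 of chromosome 18, their median depth in EC1 was 88 reads over 4 sites in CON and 29 at 1 site in TM. EC2 had 151.5 reads over 4 sites in CON and 44 over 3 sites in TM. Scaled, this was 66.1, 22.0, 106 and 21.2, lower in TM in both mice. That stretch lies in the last exon of Stard4 on the opposite strand (GENCODE vM21), a gene for a cholesterol carrier. The sites beyond the 3′ end are therefore no measure of Camk4. The listed exonic sites of Stard4 itself had a scaled depth of 93.2, 63.7, 79.4 and 38.1. These values came from 6 sites in EC1 CON, 7 in EC2 CON and only 1 in each TM library.

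Prkcb, on the plus strand of chromosome 7 at positions 122288751 to 122634402 (mm10), had 41 counts in CON and 3 in TM of EC1, and 28 and 6 in those of EC2, or 36.5, 2.71, 25.5 and 3.41 CPM. Both TM libraries were near the floor of 3 counts. The ratio of TM to CON was 0.0744 in EC1 (95% counting interval 0.0147 to 0.233) and 0.134 in EC2 (0.0452 to 0.329), and the fitted log2 fold change was -3.27 (standard error 0.58). A single exonic site was listed, of 1 read in EC1 TM, and no exon of another gene overlaps its exons on the opposite strand. In its introns, 1 site in EC1 TM (29 reads) and 1 in EC2 CON (48 reads) had 10 reads or more. With 3 and 6 counts left in TM and no listed exonic site in CON, the size of the Prkcb fall rests on the counts alone.

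Read by depth, 6 of the 9 genes had at least 3 exonic sites in every library. Of these, Nfatc1 and Rcan1 were lower in TM in both mice, beside 37.2% of 6836 genes, and Nfatc3 was higher in both, beside 38.2%. Only Nfatc1 of the 6 was at least 2-fold lower in both mice, beside 2.72% of genes. Intronic depth was lower in both mice for Nfatc1 and Rcan1, again 2 of 6, beside 33.1% of genes with intronic depth.

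**Figure D3:**
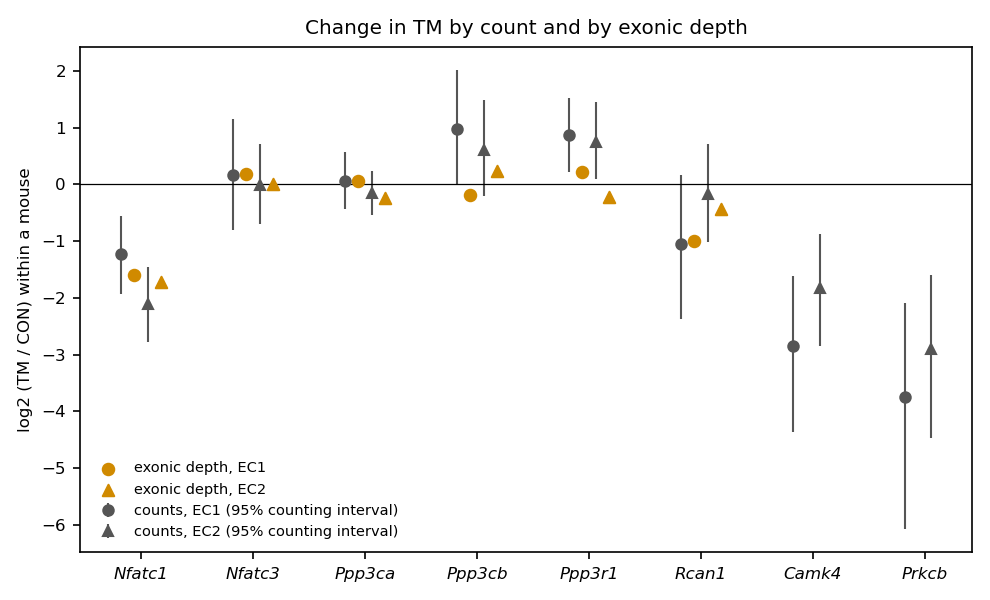
Log2 ratio of TM to CON within each mouse (y axis) for 8 genes (x axis), from counts (grey, with 95% counting intervals) and from exonic depth (orange, 6 genes), circles for EC1 and triangles for EC2. Both readouts lie below 0 for Nfatc1 and Rcan1 in both mice, and only counts are drawn for Camk4 and Prkcb.

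Depth is a level per base and can be set side by side between genes, although it also depends on which sites a library lists and varies several-fold within a gene. In CON, Ppp3ca (387 ± 107 SD, n = 2) and Nfatc1 (363 ± 29.9) had the highest scaled exonic depth and overlapped each other. Ppp3r1 (213 ± 58.1) and Rcan1 (208 ± 6.27) followed and also overlapped, then Ppp3cb (111 ± 5.83) and Nfatc3 (73.6 ± 13.7), each below the one before in both mice. In TM, Ppp3ca (359 ± 48.8) and Ppp3r1 (210 ± 12.6) led. Rcan1 (128 ± 31.0), Nfatc1 (115 ± 2.26) and Ppp3cb (114 ± 29.7) then overlapped one another, and Nfatc3 (78.4 ± 7.84) was again lowest.

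**Figure D4:**
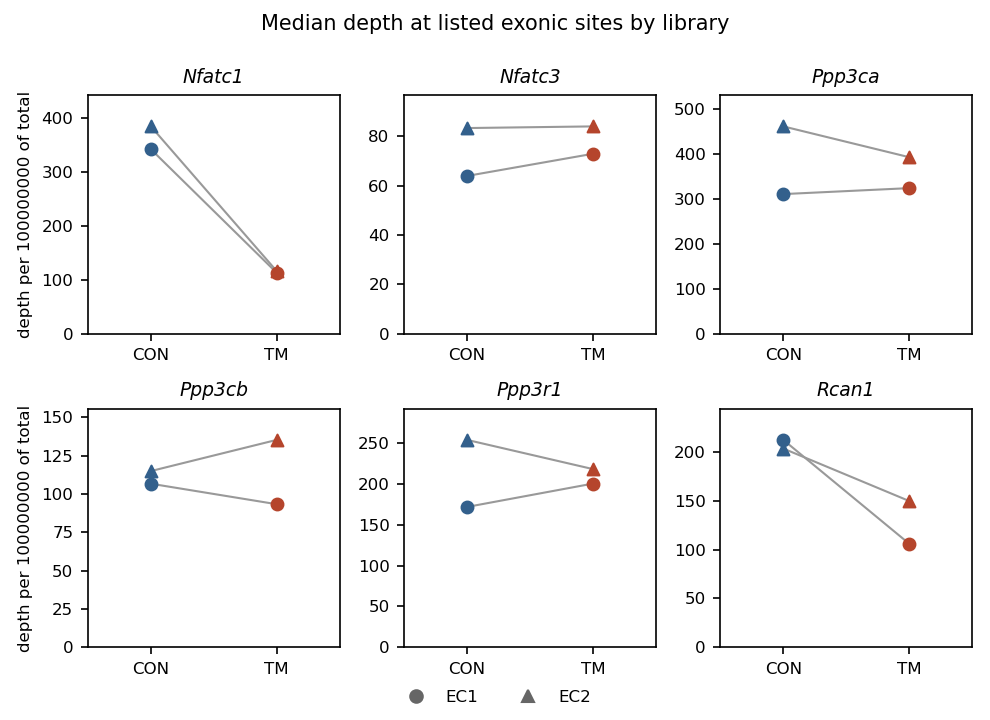
Median depth at listed exonic sites (y axis, per 100000000 counts of the library) of the 6 genes with at least 3 sites in every library, in CON and TM (x axis), with circles for EC1, triangles for EC2 and a line joining the libraries of a mouse. Nfatc1 went from 342 and 385 in CON to 113 and 116 in TM.

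ADAR1 converts adenosines to inosines, read as A-to-G changes, so the listed sites of the 9 genes were also read for editing. A site was counted as edited at a depth of at least 5 reads, with at least 3 altered reads and a rate between 5% and 95%. These limits do not tell editing from a SNP or a sequencing error, so a site called edited here is only a candidate. The study compared CON with TM of a mouse to limit SNPs. In the exons and UTRs no site of any of the 9 genes met these limits in any library. Of 487 exonic values with 50 reads or more, counted library by library, 443 had 1 altered read and 39 had 2, and none had more than 3. The highest rate there was 4.84%, in Ppp3cb in EC2 TM. These values came from 6 of the genes, since Nfatc2, Camk4 and Prkcb had no exonic site with 50 reads.

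Ppp3ca alone had edited sites, 9 in all and all of them intronic, beside 25.0% of all genes with a listed site that had at least 1. In a (TG)n simple repeat, 4 of them lay between positions 136677337 and 136677474 of chromosome 3 (mm10), and the other 5 lay outside repeats. At position 136677351, 7 of 13 reads were altered in EC1 CON (53.8%, 95% Wilson interval 29.1% to 76.8%) and 11 of 17 in EC1 TM (64.7%, 41.3% to 82.7%). In EC2 the same site had 1 of 8 reads altered in CON and 4 of 8 in TM. At position 136677361, 33.3% of 15 reads were altered in CON and 47.1% of 17 reads in TM of EC1. The remaining repeat sites did not share that order, with 2 of 14 reads altered in CON and 1 of 15 in TM of EC1 at position 136677337, and 5 of 14 in EC1 CON and no listing in EC1 TM at position 136677474. The intervals of CON and TM overlapped wherever both libraries listed a site.

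Outside repeats, the deepest edited site, at position 136737023, had 3 of 22 reads altered in EC1 CON (13.6%) and was listed in no other library. Positions 136837626 and 136837628 had 37.5% of 16 and 35.3% of 17 reads altered in EC1 CON, and 4 and 3 of 8 reads in EC1 TM. Averaged over sites, with a site not listed taken as 0, EC1 had a rate of 34.7% in CON and 24.9% in TM over 8 sites. EC2 had 13.5% in CON and 25.6% in TM over 4 sites, so that the mice differed in direction. Over sites listed in both libraries, the rate was higher in TM in both mice, by 9.82 percentage points in EC1 and 24.1 in EC2, and the EC1 direction thus rested on sites that EC1 TM did not list. With reads pooled over sites, the rate was also higher in TM in both mice, at 33.1% and 52.0% in EC1 and 19.2% and 32.3% in EC2. The direction in EC1 thus depended on how sites without a listing were treated.

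The rest of the pathway was followed through 85 genes in 8 lists, of which 48 passed the filter on low counts. Of these, 3 were called higher in TM and 0 lower, beside 4.39% higher and 3.35% lower of all genes tested. The test was the quasi-likelihood test of edgeR, with p adjusted over the 7899 genes by Benjamini and Hochberg. At an unadjusted p under 0.05 there were 3 higher and 2 lower, and DESeq2 called 2 higher and 0 lower. By depth, 24 of 52 genes were lower and 18 higher in TM in both mice, beside 37.2% and 38.2% of all genes with depth. Vegfa, Ptgs2 and Vcam1 were at least 2-fold higher in both mice and no gene was at least 2-fold lower, beside 3.95% and 2.72% of all genes with depth.

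The genes called higher were Fkbp5, Vegfa and Cxcl10. Fkbp5, an immunophilin of the family through which the drug FK506 blocks calcineurin, had 34, 62, 28 and 132 counts. Its log2 fold change was 1.24 (standard error 0.37), with an adjusted p of 0.0319 from edgeR. Its exonic depth was also higher in TM, from 250 to 482 in EC1 and from 329 to 546 in EC2, but DESeq2 did not call it (adjusted p = 0.187). The growth factor Vegfa, which activates calcineurin in ECs through its receptor Kdr, had 2 counts in both CON libraries together and 82 in both TM libraries. That is a ratio of 31.8 (95% counting interval 8.53 to 267), with an adjusted p of 4.74e-05 from edgeR, and the width of the interval comes from the 2 counts in CON. Its exonic depth went from 9.77 to 93.3 in EC1 and from 4.18 to 126 in EC2. Cxcl10, a chemokine that interferon switches on, had 0 counts in both CON libraries and 11 and 19 in EC1 TM and EC2 TM. CPM were thus at least 3.73-fold higher in EC1 and at least 3.95-fold higher in EC2 (against 3 counts in each CON library), with an adjusted p of 0.00192 from edgeR. Its exonic depth was 983 in EC1 TM and 956 in EC2 TM, with no site listed in CON. Vegfa was called without each library in turn. Fkbp5 was not called without either CON library or without EC2 TM (adjusted p 0.11, 0.208 and 0.214 from edgeR), and Cxcl10 was not called without EC1 CON, EC2 CON or EC1 TM (0.101, 0.0856 and 0.112).

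Of 7 tested inhibitors and regulators of calcineurin, Fkbp5 was the one called, and the list had a median of 0.08. Fkbp1a, the FK506-binding protein FKBP12, had 132, 139, 134 and 224 counts and a depth of 2394 and 2377 in EC1 and 3631 and 3133 in EC2. For Ppia, the target of cyclosporin A, the counts were 25, 15, 22 and 28 and the depth 4268 and 3878 in EC1 and 6449 and 3820 in EC2. Chp1, an inhibitor related to the regulatory subunit, had a depth of 326 and 225 in EC1 and 403 and 274 in EC2, lower in TM in both mice. Of the other NFAT and calcineurin genes only Nfat5, a tonicity-responsive relative, was tested, with 124, 108, 80 and 193 counts and a log2 fold change of 0.18 (standard error 0.32). Its depth was 505 and 451 in EC1 and 441 and 323 in EC2, lower in TM in both mice. Among the 9 tested NFAT kinases, which send NFAT out of the nucleus, none was called and the list's median was 0.21. Gsk3a came nearest, with 610, 396, 747 and 734 counts, a log2 fold change of -0.66 (standard error 0.28) and an adjusted p of 0.172 from edgeR. Blocked on the mouse, edgeR gave it an adjusted p of 0.00593. Its exonic depth was 201 and 247 in EC1 and 281 and 255 in EC2. For Gsk3b, the log2 fold change was 0.30 (standard error 0.32).

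None of the 8 tested genes for calmodulin and its kinases was called, and their median was -0.29. By depth, 3 of 5 genes were lower and 2 higher in TM in both mice, beside 37.2% and 38.2% of all genes with depth. Calm2 and Calm3, which encode calmodulin, were among the lower. Calm2 went from 1221 to 1027 in EC1 and from 1754 to 1040 in EC2, and Calm3 from 740 to 425 and from 990 to 549. Camk1, a kinase that calmodulin activates, had 118, 140, 129 and 240 counts and a log2 fold change of 0.24 (standard error 0.30). It was 1 of the 2 genes higher by depth, from 70.6 to 78.9 in EC1 and from 112 to 149 in EC2. Among other PKC isoforms 4 of 8 were tested and none called, with a median of 0.20. Prkce, an isoform that needs no calcium, had a depth of 52.6 and 53.1 in EC1 and 53.6 and 66.6 in EC2, and Prkch, of the same class, 119.9 and 129.7, and 164 and 127. Prkcz, the isoform of this list with the highest mean CPM, had too few sites for a ratio, with a depth of 60.1 and no listed site in EC1, and 94.1 and 34.5 in EC2, where TM listed 2 sites.

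Upstream, none of the 9 tested genes of phospholipase C and store-operated calcium entry was called, with a median of 0.17. Plcg1, the phospholipase that VEGF receptors activate, had a depth of 407 and 291 in EC1 and 427 and 293 in EC2. The channel Orai3 went from 57.9 to 47.0 and from 93.0 to 74.0, lower in TM in both mice like Plcg1. Atp2a2, the pump that refills the store, had 425 and 484 in EC1 and 476 and 494 in EC2. The calcium release channel Itpr2 went from 85.3 to 146 and from 82.2 to 158. Among VEGF genes, the receptor Kdr had 104, 62, 97 and 123 counts, a log2 fold change of -0.51 (standard error 0.32) and an adjusted p of 0.394 from edgeR. The lymphatic receptor Flt4 had a depth of 2364 and 1607 in EC1 and 2848 and 1656 in EC2, while Flt1 went from 102 to 156 and from 93.4 to 132. The co-receptor Nrp2 went from 640 to 405 and from 681 to 371. The median of the 5 tested VEGF genes was -0.40.

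Genes linked to NFAT in ECs were mostly too low in counts, with 5 of 18 tested and a median of 0.61, which is the same with Cxcl10 at its bound. By depth, 4 of 8 were higher and 3 lower in TM in both mice, beside 38.2% and 37.2% of all genes with depth. The prostaglandin enzyme Ptgs2 went from 81.2 to 329 in EC1 and from 96.1 to 356 in EC2. The adhesion molecule Vcam1 went from 39.1 to 112 and from 54.3 to 142, and Icam1 from 168 to 326 and from 228 to 430. Rnd1, a small GTPase, went from 58.6 to 126 and from 104 to 201. The early response gene Egr1, which VEGF and NFAT signalling can induce, had 6, 8, 1 and 44 counts, too few for the test, and a depth of 48.8 (2 sites only) and 286 in EC1 and 38.3 and 391 in EC2. These genes also respond to other signals. The 3 genes lower in both mice were Angpt2, Esm1 and Sele. Angpt2 was at 3337 and 3109 in EC1 and 4827 and 3029 in EC2. Esm1 went from 162 to 108.5 and from 176 to 149, and Sele from 30.1 to 23.5 and from 49.5 to 47.5.

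**Figure D5:**
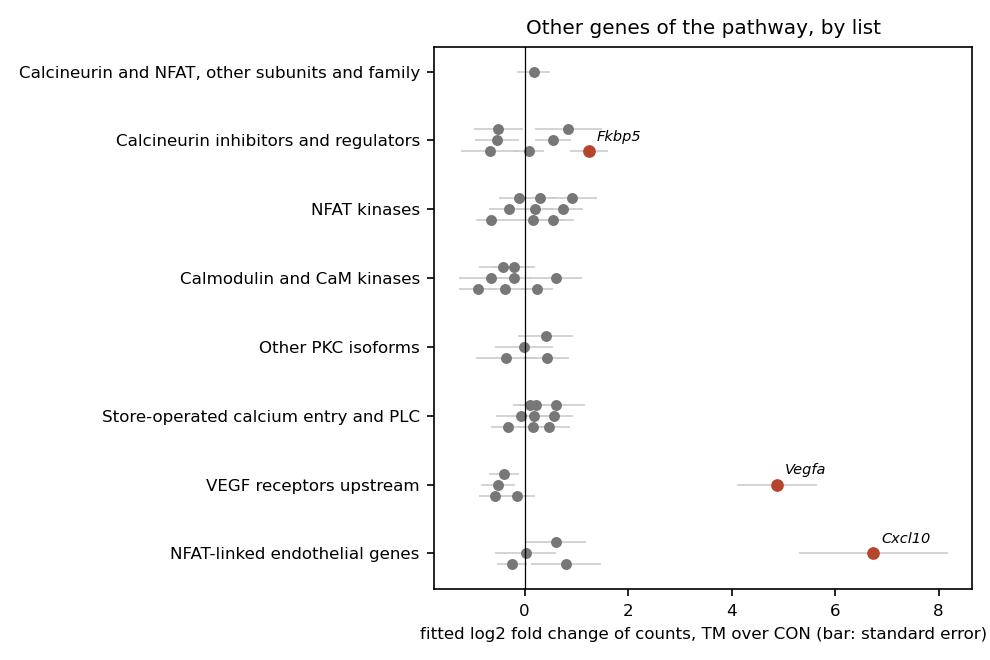
Fitted log2 fold change of counts, TM over CON (x axis), of the 48 tested genes in 8 pathway lists (y axis), with standard errors as bars and the 3 called genes in red. Grey points were not called and lie around 0, while Fkbp5, Vegfa and Cxcl10 lie to the right, the last 2 from CON counts of at most 2, so that their fitted position depends on the prior count.

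For Nfatc1, Camk4 and Prkcb, the nearest count patterns over the 4 libraries were sought by the Euclidean distance of log2 CPM centred per gene. For Nfatc1 they were Clec14a (39, 16, 49 and 16 counts, distance 0.0906), Sox18 (47, 18, 55 and 19, distance 0.0922) and Brf2 (180, 87, 207 and 84, distance 0.142). Clec14a and Sox18 are endothelial genes, and their depth was also lower in TM, from 607 to 198 and from 559 to 150 for Clec14a, and from 1364 to 432 and from 1662 to 402 for Sox18. Brf2 shares bases with an exon of Adgra2 on the opposite strand, and its own depth was 27.1 and 41.7 in EC1 and 39.7 and 46.3 in EC2. For Camk4 the nearest were Cacna1e (distance 0.268), Fabp4 (0.292) and Ulbp1 (0.372), of which Fabp4, a fatty acid carrier of capillary ECs, had a depth of 7890 and 2578 in EC1 and 9194 and 3131 in EC2. For Prkcb they were Kcnq1ot1 (distance 0.402), Klhl4 (0.415) and Kbtbd11 (0.424). Klhl4 had a depth of 1069 and 313 in EC1 and 1392 and 286 in EC2, whereas Kcnq1ot1, which overlaps Kcnq1 on the opposite strand, had 17.7 and 12.1, and 5.57 and 6.03. Likeness over 4 libraries of the same contrast is a description and says nothing of shared control.

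Because Nfatc1 is also expressed in lymphatic endothelium and Camk4, Prkcb and Nfatc2 are known from leukocytes, the markers of those cells were read beside them. Of 6 lymphatic endothelial markers 4 were tested, and Prox1 and Reln were called lower, with log2 fold changes of -1.46 (standard error 0.37) and -1.81 (standard error 0.37) and adjusted p of 0.0109 and 0.00108 from edgeR. The depth of Prox1 went from 459 to 165 and from 559 to 175, while Lyve1 was at 4306 and 4151 in EC1 and 6194 and 4476 in EC2. The list summed to 608 and 438 CPM in CON and TM of EC1, and to 551 and 439 in those of EC2. Of 10 tested endothelial markers only Cldn5 was called, lower, with a log2 fold change of -1.52 (standard error 0.41) and an adjusted p of 0.0176 from edgeR. The endothelial list summed to 1395 and 1306 CPM in CON and TM of EC1, and to 1323 and 1416 in those of EC2. Summed exonic depth, with a gene without a listed site added as 0 and no minimum of sites, was lower in TM for both lists. It went from 20787 to 17262 and from 26205 to 19033 for the endothelial markers. For the lymphatic markers it went from 7678 to 6207 and from 10410 to 6583. The part of these markers in the fall of Nfatc1 was not tested.

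Of 7 T cell markers, Cd3e, Cd3g and Cd2 were at 0 in all libraries and only Lck had exonic sites. Cd4 had 13, 3, 11 and 6 counts, lower in TM in both mice. Lck had 15, 15, 9 and 18 counts, Cd8a 2, 4, 0 and 6, and Cd3d 0, 1, 4 and 1. The list summed to 26.7 and 20.8 CPM in CON and TM of EC1, and to 21.9 and 17.6 in those of EC2. Of 5 B cell markers, Cd79b and Ms4a1 were at 0, and the sums were 31.1 and 25.3 CPM in EC1 and 26.5 and 21.6 in EC2, most of it Cd79a, with at most 1 listed exonic site in a library. Of 8 myeloid and leukocyte markers Lyz2 had no count and a depth of at most 28.6, Ptprc, the gene of CD45, had at most 1, and the sums were 68.5 and 74.2 CPM in EC1 and 54.7 and 53.5 in EC2. No gene of these 3 lists was called. The 10 fibroblast and smooth muscle markers summed to 556 and 571 CPM in EC1 and 584 and 499 in EC2, none called. Their summed exonic depth was 579 and 206 in EC1 and 910 and 319 in EC2, again with a gene without a listed site added as 0. Acta2 and Col1a2, at 93.9 and 51.1 in EC1 CON, had no listed site in EC1 TM, so part of the lower sum there is missing listing. The part of the fibroblast and smooth muscle markers in the values of the 9 genes was not tested. Of 7 epithelial markers 1 was tested and not called, Krt19 had no count, and the sums were 19.6 and 19.0 CPM in EC1 and 12.8 and 14.2 in EC2.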

How the data were processed

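RNA from lung ECs of 2 i-KO mice, with 1 CON and 1 TM culture each, was depleted of ribosomal RNA and sequenced as read pairs of 101 bases. Per the labels, the authors used Trimmomatic 0.38 on the reads, STAR 2.6.1a for alignment to mm10 and HTSeq 0.11.2 for counting per gene, and deposited raw counts without normalization. For the site table the authors called variants in each library with BCFtools, kept A-to-G changes on the strand of the gene, annotated them to gene regions and repeats, and deposited counts of reads with each base and the altered fraction. Rows of the count tables that name no gene held 92.8% to 93.9% (no feature) and 5.29% to 6.32% (not unique) of each total and were left out of library sizes. Site columns were matched to libraries through a table of the study that gives the same values under library names.

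The 9 genes, the pathway lists and the marker lists were chosen with earlier results of these data known. Counts were compared with edgeR 4.0.16 in R 4.3.3 (filterByExpr, TMM, quasi-likelihood test, condition only) with Benjamini-Hochberg adjustment at 0.05. The alternatives tried were a replicate block for the mouse, DESeq2 1.42.0, other size factors, other filters and each library left out. The TM and CON cultures of a number came from the same mouse, and their deviations from the group means correlated with r = 0.16 across genes. Nothing shows that these 2 mice span the spread of a population, so p-values measure the spread between these libraries. Named were the 9 genes, called genes of the lists, and otherwise some of the 5 per list with the highest mean CPM, not always the highest of these. Values by depth were given for further list genes, such as Ptgs2, chosen after their values were seen. Ratios of counts were given exact binomial intervals, and rates Wilson intervals, covering counting error only. Exonic depth was the median of reference plus altered reads over listed sites, with at least 3 sites in each library. The summed depths of the marker lists did not ask for that minimum and took a gene without a listed site as 0. Gene models were GENCODE vM21 (GRCm38), and the annotation used by the authors may differ. Promoters were matched by symbol for 6 of the 9 genes. The fits and the depth ratio were tested on simulated data. Python 3.11.15 with numpy 2.4.6, pandas 2.3.3 and scipy 1.17.1 was used. The values of 1 gene of the pathway lists are not reported here.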

Additional observations from a re-analysis of the deposited data

How the results depend on the processing

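The count of called genes, 612, was 365 under DESeq2 and, with a replicate block for the mouse, 1184 in edgeR, and 436 to 574 with 1 library left out. Of the pathway genes, 3 were called, but 1 with the replicate block in DESeq2 (Gsk3a, where Vegfa and Cxcl10 had no adjusted p), 1 when at least 10 counts were asked of every library (Vegfa and Cxcl10 were then not tested), and 1 to 3 with a library left out. Vegfa was called without each library in turn, whereas Fkbp5 was called only without EC1 TM, and Cxcl10 in none of the fits without a library that gave it a value. Egr1 was called higher without EC1 CON, without EC1 TM and with no filter. In the 9 genes, Nfatc1, Camk4 and Prkcb were called in all alternatives except the following. Without EC2 TM Nfatc1 was not called, with 10 counts in every library Camk4 and Prkcb were not tested, and with the replicate block in DESeq2 Nfatc1 was not called and the others had no adjusted p. No alternative turned the direction of a called gene. The 9 genes were chosen for falling in these same libraries, so their calls and directions in these fits restate the choice and nothing is read from them. The Rcan1 log2 fold change of -0.47 ran from -1.15 (without EC2 TM) to -0.07, and those of Nfatc3 and Ppp3ca changed sign with the library left out.

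Lower CPM in both mice was found for 4 of the 9 genes under all 3 other scalings, and 4 to 6 were lower in a single mouse. By depth 2 genes were lower in both mice, but 1 with exon sites alone (Rcan1 then had too few sites), 1 with sites listed in both libraries (Nfatc1 had none in common), and 3 to 4 in a single mouse. Matching exon and UTR pieces, chosen after seeing the data, gave 3, adding Nfatc3, and scaling by the median depth over all genes gave 3, adding Ppp3ca. The editing difference of 1.10 percentage points over both mice was 16.9 over sites listed in both libraries, 16 with reads pooled over sites and -9.83 to 12.0 in single mice. A depth of 20 reads left no site in EC2. Depth limits the low genes, since 3 counts was the whole Prkcb signal in EC1 TM.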
